A study of Mus musculus with 12 samples.

Results

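The 9 genes described here encode protein kinases that are switched on by calcium-bound calmodulin and the calcium- and calmodulin-dependent phosphatase calcineurin. They were chosen by name, as the rows of the count table for Camk2a, Camk2b, Camk2d, Camk2g, Camk4, Camk1d, Ppp3ca, Ppp3cb, and Ppp3r1, and they are 9 of the 55418 genes in the table. RNA was taken from the brainstem (medulla and pons) of outbred CFW (Swiss Webster) mice at P15. Pups had been given subcutaneous saline or morphine (15 mg/kg) on P1 through P14, with 2 injections per day, and tissue was taken 16 h after the last of them, when morphine-treated pups were in spontaneous withdrawal. Each treatment was represented by 3 males and 3 females, and each mouse gave 1 library of poly-A RNA. The comparisons ask whether transcript levels differed between morphine- and saline-treated mice, with the sexes combined and within each sex.

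Calcium entering a neuron binds calmodulin, and calcium-bound calmodulin then activates both arms of this gene set. Camk2a, Camk2b, Camk2d, and Camk2g encode the α, β, δ, and γ subunits of CaMKII, the abundant holoenzyme kinase of synapses, in which α and β are the main neuronal forms and β also binds actin. Camk4 encodes a mostly nuclear kinase that phosphorylates CREB, and Camk1d encodes a CaMKI form, both of which are themselves activated by the CaM kinase kinases. Ppp3ca and Ppp3cb encode the α and β catalytic subunits of calcineurin, which opposes kinases by removing phosphate from targets such as NFAT and CRTC proteins, and Ppp3r1 encodes its regulatory B subunit. CaMKII and calcineurin are both known from studies of opioid tolerance and dependence and of synaptic plasticity.

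Start-site sequences are shown for 3 of these genes, because Camk2b lay at one end of the variation between mice described below and Camk2d and Ppp3r1 lay at the other. RefSeq promoter windows (GRCm38.p6), which hold 300 bases around a transcript start, most of them upstream, were found for 5 of the 9 genes. Capitals mark the GC box GGGCGG on either strand, where neighboring matches may overlap.
Camk2b, chr11:6065699-6065998, minus strand: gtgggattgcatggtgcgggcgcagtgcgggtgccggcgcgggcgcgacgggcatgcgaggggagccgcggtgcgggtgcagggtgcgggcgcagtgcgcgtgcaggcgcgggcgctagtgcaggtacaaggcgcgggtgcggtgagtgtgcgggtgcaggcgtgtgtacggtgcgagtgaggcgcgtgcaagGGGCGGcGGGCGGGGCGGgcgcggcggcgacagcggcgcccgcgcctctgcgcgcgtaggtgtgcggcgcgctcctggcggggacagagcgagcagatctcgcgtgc
Camk2d, chr3:126596701-126597000, plus strand: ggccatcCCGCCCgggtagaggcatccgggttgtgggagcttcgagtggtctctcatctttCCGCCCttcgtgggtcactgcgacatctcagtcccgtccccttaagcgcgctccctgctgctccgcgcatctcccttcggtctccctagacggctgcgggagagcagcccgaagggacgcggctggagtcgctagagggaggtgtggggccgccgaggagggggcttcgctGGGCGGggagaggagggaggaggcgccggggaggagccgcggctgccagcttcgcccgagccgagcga
Ppp3r1, chr11:17159048-17159347, plus strand: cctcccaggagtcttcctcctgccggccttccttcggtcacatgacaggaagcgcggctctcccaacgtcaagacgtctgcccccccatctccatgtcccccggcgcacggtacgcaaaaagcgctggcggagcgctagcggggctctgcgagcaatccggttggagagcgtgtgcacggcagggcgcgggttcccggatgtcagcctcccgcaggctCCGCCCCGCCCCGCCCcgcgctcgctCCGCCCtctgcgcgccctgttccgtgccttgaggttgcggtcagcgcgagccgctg
The window of Camk2b holds 3 GC boxes and 51 CpG dinucleotides, more CpG than 99.3% of the 32851 windows of the same length. The window of Camk2d holds 3 GC boxes and 31 CpG dinucleotides, and that of Ppp3r1 holds 4 GC boxes and 36 CpG dinucleotides. The median window has 7 CpG dinucleotides, and 35.7% of windows hold at least 1 GC box. None of these 3 windows holds the full cAMP response element TGACGTCA, which is in 1.79% of windows, or the word TATAAA, which is in 13.6%. The 3 windows shown were thus all rich in CpG, and these words did not separate Camk2b from Camk2d and Ppp3r1. The windows not shown were less uniform. That of Ppp3cb, which varied in the same direction as Ppp3r1, holds 2 GC boxes and 13 CpG dinucleotides, more CpG than 62.1% of windows. Those of Camk1d hold 29 and 5 CpG dinucleotides. A relation of CpG content to the variation between mice was not tested.

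Between 27850565 and 48097947 counts per library fell on genes, so that counting error was small beside the differences between mice for all 9 genes. Saline male 3 stood apart from the other libraries, and saline males 1 and 2 stood apart in the opposite direction. Over the 18608 genes tested with the sexes combined, 20.7% had saline males 1 and 2 together on one side of the range of the 9 other mice and saline male 3 on the other side. The GC content of each gene was taken from its longest annotated transcript. Across these genes, it was correlated with the deviation of a library from the mean of the 11 others. The correlation was r = 0.58 and 0.68 in saline males 1 and 2 and r = -0.67 in saline male 3 (genes are not independent replicates). It was -0.51 in saline female 6, 0.48 in the library labelled morphine male 6, -0.32 in saline female 5, and between -0.26 and 0.10 in the 6 other libraries. The library labelled morphine male 6 lay between the sexes. Its Xist level was 380 CPM, against 547 to 970 CPM in the 6 female libraries and at most 2.71 CPM in the other male libraries. Its Ddx3y level was 12.8 CPM, against 118 to 199 CPM in the other male libraries and at most 0.729 CPM in the female libraries. The cause was not tested. The markers fixed for brainstem (7 of 7, including the glycine transporter Slc6a5 at 479 to 638 CPM) were present in every library, and of 5 forebrain excitatory neuron markers only Neurod6 had a median of at least 1 CPM. All 6 cerebellar granule cell markers were detected, with a summed level of 132 to 240 CPM.

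All 9 genes were transcribed in the brainstem of every mouse and all 9 passed the filter on low counts in every comparison. In whole tissue, fewer cells of a type and less RNA per cell cannot be told apart. Levels between genes were compared as CPM per kilobase of annotated exon, over the 12 mice. Ppp3r1, the calcineurin B subunit, was the most abundant at 175 ± 31.5 CPM per kb (mean ± SD, n = 12). It was followed by the catalytic subunit genes and the γ and β CaMKII genes, with Ppp3ca at 51.4 ± 6.60, Camk2g at 46.3 ± 5.60, Ppp3cb at 39.2 ± 5.55, and Camk2b at 29.8 ± 7.17 CPM per kb. Neighbors in this middle range were not separated in every mouse, since Ppp3ca exceeded Camk2g in 9 of 12 mice, Camk2g exceeded Ppp3cb in 10, and Ppp3cb exceeded Camk2b in 9. Camk1d, at 16.9 ± 1.37 CPM per kb, lay below Camk2b and above Camk2a in all 12 mice. Camk2a, the α subunit gene that dominates in the forebrain, was at 11.9 ± 1.37, Camk2d at 9.33 ± 1.15, and Camk4 at 7.49 ± 1.27 CPM per kb. The order of the genes below Ppp3ca rested in part on the length used. With the longest annotated transcript in place of all exons, Ppp3cb (90.1 ± 12.8 CPM per kb) lay above Camk2g (80.1 ± 9.68 CPM per kb) in 9 of 12 mice. By that length Camk2d (5.52 kb in place of 22.5 kb) rose to the sixth place at 38.0 ± 4.70 CPM per kb, and Camk1d exceeded Camk2a in only 6 of 12 mice.

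The genes lie on 5 chromosomes of GRCm38. Camk2a is at chr18:60925618-60988152 and Camk4 at chr18:32934931-33191228. Camk2b is at chr11:5969644-6066362 and Ppp3r1 at chr11:17159263-17200375. Camk2g is at chr14:20734875-20794088, close to Ppp3cb at chr14:20499364-20546573. Camk2d is at chr3:126596302-126846326, Ppp3ca at chr3:136670124-136937727, and Camk1d at chr2:5293457-5714515. Counts were taken over exons, and 2 of the genes share exon bases with a neighbor. Ppp3r1 shares 14.3% of its exon bases with Wdr92 on the same strand, and Camk4 shares 2.21% with the antisense gene 2310026I22Rik. Reads in these bases cannot be assigned with certainty to either gene.

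With the sexes combined and sex as a covariate, none of the 9 genes passed the thresholds for a differentially expressed gene (log2 fold change beyond 0.26 in either direction with an unadjusted p below 0.05, edgeR quasi-likelihood test). Of all 18608 genes tested, 1.19% passed and none had an adjusted p under 0.05. The log2 fold changes of the 9 genes, morphine minus saline, ran from -0.15 to 0.09 with a median of -0.02, and the median over all genes tested was also -0.02. The median absolute change of the 9 was 0.02, against 0.08 over all genes. None of the 9 had an unadjusted p under 0.05 in this or any of the 3 other comparisons, and none passed with the Wald test of DESeq2 or, where it could be run, with exactTest.

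Among the calcineurin genes, Ppp3r1 had the smallest p of the 9. Its lowest, median, and highest levels were 461, 590, and 827 CPM in the 6 saline mice and 447, 544, and 614 CPM in the 6 morphine mice. The groups overlapped, and the highest value came from saline male 3. The log2 fold change was -0.15 ± 0.13 (SE, adjusted p = 1.00 by edgeR's quasi-likelihood test), with a 95% interval from -0.43 to 0.14, and it was -0.003 without saline male 3. The catalytic subunit genes were closer to no difference. Ppp3ca was at 525 ± 81.0 CPM in saline and 501 ± 51.4 CPM in morphine mice (mean ± SD, n = 6), a log2 fold change of -0.06 with an interval from -0.28 to 0.17. Ppp3cb was at 353 ± 67.0 CPM and 337 ± 24.5 CPM, a log2 fold change of -0.06 with an interval from -0.31 to 0.19.

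The CaMKII genes gave similar means in both treatments and a wider spread in saline mice. Camk2b was at 174, 254, and 398 CPM (lowest, median, and highest) in saline mice and at 228, 267, and 312 CPM in morphine mice. The range of the morphine mice thus lay inside that of the saline mice, whose ends were saline males 3 and 2. Its log2 fold change was -0.02 with an interval from -0.39 to 0.35. Camk2a was at 89.6 ± 12.8 CPM in saline and 88.7 ± 8.15 CPM in morphine mice, Camk2d at 210 ± 36.3 and 210 ± 12.9 CPM, and Camk2g at 300.1 ± 50.2 and 293 ± 16.6 CPM. The intervals of the log2 fold change ran from -0.22 to 0.22 for Camk2a, from -0.23 to 0.25 for Camk2d, and from -0.23 to 0.19 for Camk2g. Together with Camk1d (-0.16 to 0.20), these were the 4 genes of the 9 whose interval lay wholly within 0.26 of no difference. Camk4 had the largest positive value, 0.09 with an interval from -0.23 to 0.41. Camk4 was at 23.7 ± 4.19 CPM in saline and 25.1 ± 4.38 CPM in morphine mice.

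**Figure D1:**
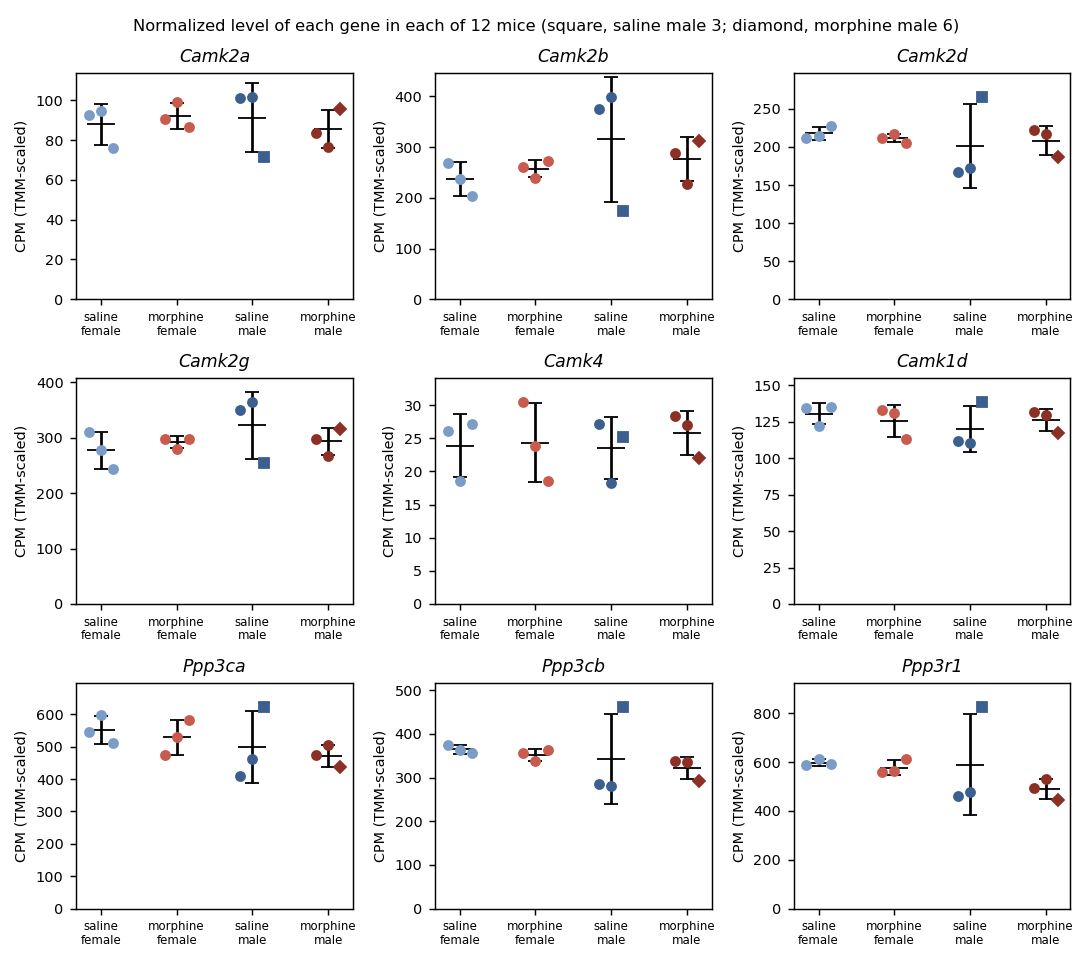
Normalized level (CPM, vertical axis from 0) of each of the 9 genes in each mouse, by treatment and sex, with the mean and SD of the 3 mice of a group. Saline male 3 (square) is the lowest library for Camk2a and Camk2b and the highest for Camk2d, Camk1d, Ppp3ca, Ppp3cb, and Ppp3r1, and treatment groups overlap in every panel.

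Within females, none of the 9 genes passed the thresholds, where 1.81% of 18109 genes did (edgeR quasi-likelihood test, none with an adjusted p under 0.05, against 3 with DESeq2 and 3 with exactTest). The log2 fold changes ran from -0.06 to 0.12 with a median of -0.05, and the median over all genes was -0.01. Camk2b had the largest value and the smallest p. It was at 269, 238, and 203 CPM in the saline females and at 261, 239, and 273 CPM in the morphine females, so that the groups overlapped. Its log2 fold change was 0.12 ± 0.11 (SE, adjusted p = 1.00), with an interval from -0.12 to 0.36. Camk2a and Camk2g had values of 0.06 and 0.07, while Camk2d and the 3 calcineurin genes had values between -0.06 and -0.05. The 6 females gave the tightest measurements of the calcineurin genes. Ppp3r1 was at 590, 613, and 591 CPM in saline females and 558, 562, and 614 CPM in morphine females, and Ppp3cb at 375, 363, and 355 CPM and 356, 337, and 363 CPM. The intervals of Ppp3r1 (-0.23 to 0.12), Ppp3cb (-0.23 to 0.12), and Camk2d (-0.24 to 0.13) lay within 0.26 of no difference.

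Within males, again none of the 9 genes passed the thresholds, where 2.99% of 18166 genes did (edgeR quasi-likelihood test, none with an adjusted p under 0.05, against 0 with DESeq2 and 1 with exactTest). The log2 fold changes ran from -0.28 for Ppp3r1 to 0.12 for Camk4 with a median of -0.10, against a median of -0.06 over all genes. None of the 9 intervals lay within 0.26 of no difference. Camk2b was at 375, 398, and 174 CPM in saline males and 289, 228, and 312 CPM in morphine males. All 3 morphine males thus lay between saline male 3 and saline males 1 and 2, and the log2 fold change was -0.19 with an interval from -0.92 to 0.53. Camk2d showed the same arrangement turned over, with 167, 173, and 265 CPM in saline males and 222, 217, and 186 CPM in morphine males. Ppp3r1 was at 461, 477, and 827 CPM in saline males and 494, 531, and 447 CPM in morphine males. Its log2 fold change of -0.28 ± 0.25 (SE, adjusted p = 1.00) was 0.10 without saline male 3. With all mice kept and offsets for GC content and length it was -0.24 ± 0.09, which did not reach the threshold of 0.26, although the unadjusted p of edgeR's quasi-likelihood test was 0.029.

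The treatment difference in males did not differ from that in females for any of the 9 genes at the thresholds used, where 2.94% of 19027 genes passed for the interaction of treatment and sex (edgeR quasi-likelihood test, none with an adjusted p under 0.05). Values, males minus females, ran from -0.30 for Camk2b to 0.14 for Camk1d, with a median of -0.03 (-0.03 over all genes). Camk2g had the smallest p, with -0.19 ± 0.20 (SE, adjusted p = 0.98). The intervals were wide, from -1.05 to 0.45 for Camk2b and from -0.55 to 0.79 for Camk4, and none of the 9 lay within 0.26 of no difference. The SE for Camk2b was 0.35 with all mice and 0.18 without saline male 3.

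**Figure D2:**
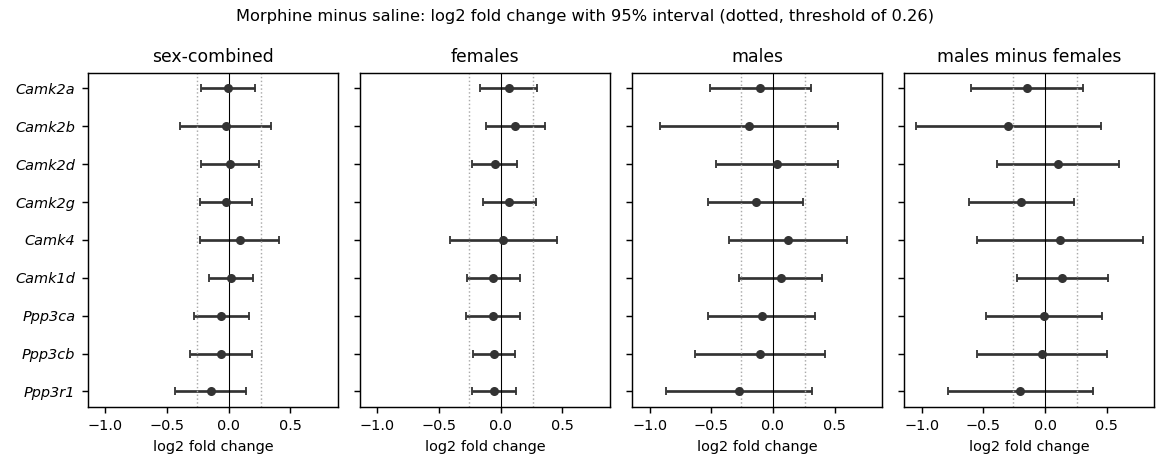
Log2 fold change of morphine against saline (horizontal axis) for each gene with the sexes combined, in females, in males, and as the difference of males minus females. Points are estimates, bars are 95% intervals, and dotted lines mark 0.26; all 36 intervals include 0, and those of males and of the difference between sexes are the widest.

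The comparisons that include males depended on saline male 3. Without it, Camk2b had a log2 fold change of -0.45 (adjusted p = 0.078) and Camk2d of 0.32 (adjusted p = 0.068) in males by edgeR's quasi-likelihood test, and both passed the unadjusted thresholds. These were 2 of the 9 genes, or 22.2%, while 28.6% of all genes tested passed once saline male 3 was left out. In males the 9 genes were thus not called more often than genes in general. In the interaction, Camk2b (-0.61), Camk2d (0.34), and Camk2g (-0.36) passed the unadjusted thresholds without saline male 3 (adjusted p = 0.057, 0.11, and 0.14 by edgeR's quasi-likelihood test). These were 3 of the 9 genes, a larger share than the 24.1% of all genes that passed. Whether this exceeded what a set of 9 genes would give was not tested. The values for Ppp3ca, Ppp3cb, and Ppp3r1 in males turned from negative to positive, at 0.14, 0.22, and 0.10. Without the library labelled morphine male 6, none of the 9 genes passed in any comparison, and Camk2b in males was at -0.30 and Ppp3r1 at -0.22.

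**Figure D3:**
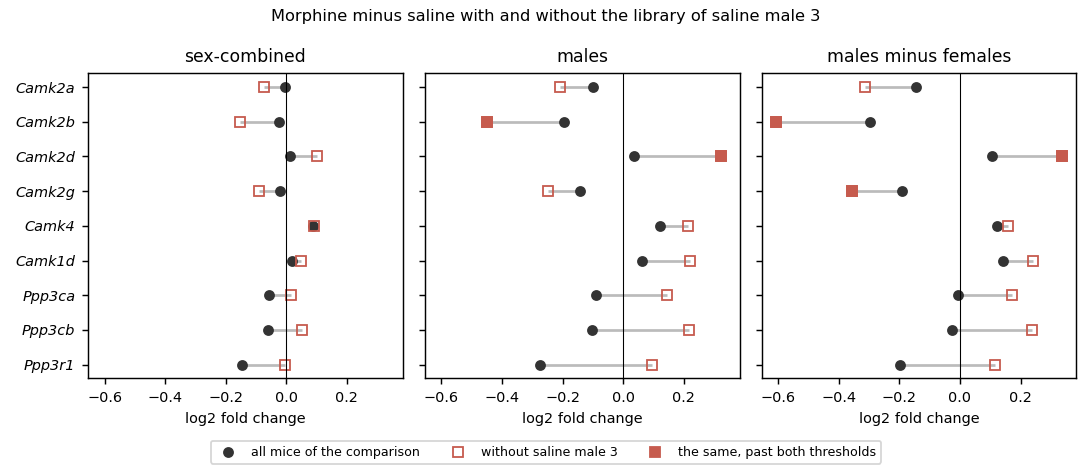
Log2 fold change of morphine against saline (horizontal axis) with all mice (black) and without saline male 3 (red squares, filled where both thresholds were passed). Camk2b and Camk2d in males and Camk2b, Camk2d, and Camk2g in the difference between sexes pass only without that library, and the 3 calcineurin genes in males change sign.

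The variation between mice split the genes into groups that moved in opposite directions. Camk2b varied 2.28-fold between the lowest and the highest mouse, Ppp3r1 1.85-fold, Ppp3cb 1.65-fold, Camk2d 1.58-fold, and Camk1d, the steadiest, 1.26-fold. Saline males held both ends for 6 of the 9 genes, while the highest value of Camk4 came from morphine female 1, the lowest of Camk2g from saline female 6, and the lowest of Ppp3r1 from the library labelled morphine male 6. For 5 of the 9 genes (55.6%), saline males 1 and 2 lay together outside the range of the 9 other mice and saline male 3 lay outside it on the other side, against 20.7% of all genes tested. Among the 9 other mice, Camk2b varied 1.54-fold and Ppp3cb 1.28-fold. Camk2b, Camk2g, and Camk2a were high in saline males 1 and 2 and low in saline male 3, and Camk2d, Camk1d, and the calcineurin genes the reverse. The ratio of Camk2b to Camk2d counts, which does not depend on scaling between libraries, was 2.24 and 2.30 in saline males 1 and 2, 0.658 in saline male 3, and between 0.892 and 1.68 in the 9 other mice. The longest transcripts of Camk2a, Camk2b, and Camk2g have a GC content of 51.8% to 53.9%. Those of Camk2d, Camk1d, and the calcineurin genes have a GC content of 39.8% to 46.9%. Since the deviations of these libraries followed GC content across all genes, GC content moved with this split, and its part in the result was not tested.

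**Figure D4:**
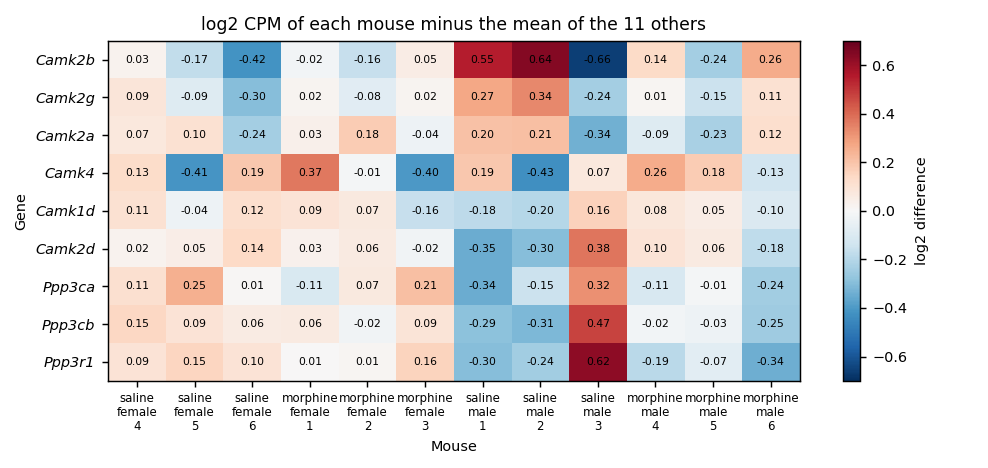
Log2 CPM of each gene (rows) in each mouse (columns) minus the mean of the 11 other mice, colored from blue (lower) to red (higher). Saline males 1 and 2 are high and saline male 3 is low for Camk2b (0.55, 0.64, and -0.66), and Ppp3r1 shows the opposite (-0.30, -0.24, and 0.62).

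Pairs of genes followed each other closely across the 12 mice. Of the 36 pairs, 26 had a correlation of log2 CPM with an adjusted p under 0.05 (permutation test with 100000 resamples, two-sided, adjusted over the 36 pairs), 12 positive and 14 negative, and 16 did so by Spearman's rho. Correlations of this size were common in these libraries, with an absolute r of at least 0.7 in 18.3% of all pairs of tested genes and in 55.6% of the 36 pairs. Camk2b and Camk2g, the β and γ subunit genes, rose and fell together (r = 0.96, p = 1e-05, the smallest the permutations can give, adjusted p = 0.00018, rho = 0.93, p = 3e-05). Without the 2 mice farthest from the Camk2b median (saline males 2 and 3) r was also 0.96, and in the 9 mice other than saline males it was 0.94. Camk2b and Camk2d went in opposite directions (r = -0.94, p = 4e-05, adjusted p = 0.00045, rho = -0.82, p = 0.0015), with r = -0.87 without the same 2 mice and r = -0.73 in those 9 mice.

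The calcineurin genes also followed each other, and over the 12 mice Camk2d followed them too. Ppp3r1 followed Ppp3cb (r = 0.95, p = 1e-05, adjusted p = 0.00018 by permutation, rho = 0.87, p = 0.00061) and Ppp3ca (r = 0.90, p = 5e-05, adjusted p = 0.00045, rho = 0.96, p = 1e-05), and r was 0.92 and 0.90 without the 2 mice farthest from the median of the other gene and 0.91 and 0.89 without the 3 saline males. The opposition of Camk2b and Ppp3r1 was weaker (r = -0.82, p = 0.0012, adjusted p = 0.0040 by permutation, rho = -0.72, p = 0.011) with r = -0.71 without saline males 2 and 3 and r = -0.58 in the 9 other mice. Camk2a and Ppp3r1 had r = -0.62 over 12 mice (permutation p = 0.028, adjusted p = 0.039, rho = -0.57, p = 0.056). Their r was -0.25 without saline male 3 and saline female 6. It was -0.06 in those 9 mice, which include saline female 6, so that relation rested on the saline males. Other pairs were also weaker in those 9 mice. Camk2a had r = 0.09 and -0.13 with Ppp3ca and Ppp3cb. With Ppp3ca, Ppp3cb, and Ppp3r1, r was -0.23, -0.22, and -0.38 for Camk2g and -0.20, 0.29, and 0.08 for Camk1d. For Camk2d it was 0.33, 0.61, and 0.51, against 0.75, 0.91, and 0.83 over the 12 mice. Camk4 stood apart from the other CaM kinases and followed only Camk1d (r = 0.64, p = 0.026, adjusted p = 0.039 by permutation, rho = 0.48, p = 0.11), with r = 0.55 without the 2 mice farthest from its median and r = 0.84 in the 9 other mice.

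The make-up of the CaMKII transcript pool was expressed as each gene's share of the summed level per kilobase of the 4 Camk2 genes. Camk2g made up 47.7 ± 1.11% in saline and 47.6 ± 0.60% in morphine mice (mean ± SD, n = 6) and stayed between 46.7% and 49.5% in all 12 mice. Camk2b made up 30.1 ± 4.63% and 30.3 ± 1.79%, Camk2a 12.3 ± 0.94% and 12.4 ± 1.03%, and Camk2d 9.96 ± 3.35% and 9.76 ± 1.08%. The share of Camk2b was 35.2% and 35.8% in saline males 1 and 2 and 23.9% in saline male 3, while that of Camk2d was 6.37%, 6.30%, and 14.7%. None of the 4 shares differed between treatments (exact permutation tests, two-sided, smallest p = 0.78 over the 12 mice), and within a sex a test of 3 against 3 mice cannot give a p below 0.1. These shares depend on the length used, as Camk2d, with the most exon sequence, takes a larger share when counts are not divided by length.

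**Figure D5:**
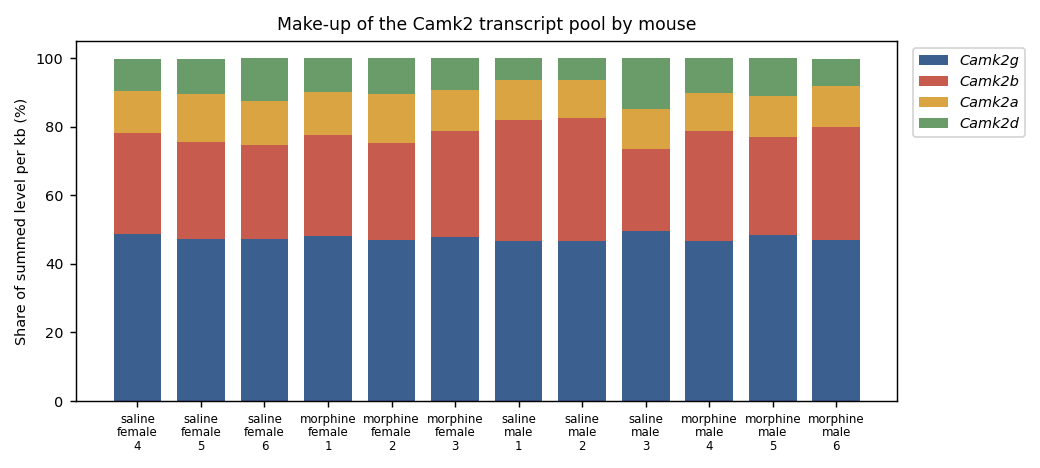
Share of each Camk2 gene in the summed CPM per kb of the 4 genes (vertical axis, %), with 1 stacked bar per mouse. Camk2g takes between 46.7% and 49.5% in every mouse, and the shares of Camk2b and Camk2d differ most among the saline males.

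Among the catalytic subunits of calcineurin, Ppp3ca made up 52.7 ± 1.61% in saline and 52.3 ± 1.65% in morphine mice and Ppp3cb 40.0 ± 2.10% and 39.9 ± 1.55% (n = 6). Ppp3cc, the γ catalytic subunit gene known mainly from testis, made up 7.30 ± 0.90% and 7.80 ± 0.32%. In females the Ppp3cc share was 6.59%, 7.13%, and 7.28% in saline and 7.65%, 7.47%, and 7.53% in morphine mice, so that the groups did not overlap (exact permutation p = 0.1, the smallest this design allows, adjusted p = 1.00 over the 21 share tests). In males the shares were 8.11%, 8.54%, and 6.14% in saline and 7.96%, 7.85%, and 8.33% in morphine mice, and the groups overlapped. The Ppp3cc level itself was 19.3 to 24.2 CPM over the 12 mice, and Ppp3r2, the testis form of the B subunit, was at 0.22 to 0.77 CPM.

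Other genes of the pathway were read from 5 lists with 44 genes in all. With the sexes combined and in females, 0 of the 44 passed the thresholds. Of the 8 other CaM kinases and CaMKII inhibitors (median log2 fold change 0.01), Camk2n1, an endogenous inhibitor of CaMKII, had the smallest p with the sexes combined, at -0.17 ± 0.13 (SE, adjusted p = 1.00 by edgeR). Of the 9 other calcineurin subunits, inhibitors, and anchors (median 0.01), Rcan2, a calcineurin inhibitor, was at -0.11 ± 0.09. Crtc2, a CREB coactivator that calcineurin dephosphorylates, was at 0.13 ± 0.14 among 8 calcineurin targets (median -0.02). Grin2b, an NMDA receptor subunit that binds CaMKII, was at 0.15 ± 0.15 among 12 CaM kinase targets and partners (median 0.01). Each of these 4 values moved by more than 1.5 times when 1 mouse was left out. Without saline male 3, Camk2n1 was at -0.06, Rcan2 at -0.04, and Crtc2 at 0.02, and Grin2b was at 0.07 without saline male 2 and at 0.06 without morphine male 4.

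The 7 calmodulin and calmodulin-binding genes (median -0.06 with the sexes combined) held the only pathway genes past the thresholds, 1 in males and 1 in the interaction. Among all 44 list genes this was 1 call in each comparison, where 2.99% and 2.94% of all genes tested passed, so the list genes were not called more often than genes in general. Gap43, which encodes a growth-cone protein that binds calmodulin, was at 168, 160, and 157 CPM in saline males and 141, 129, and 131 CPM in morphine males. These groups did not overlap, and how often this arose among all genes tested is not reported here. The log2 fold change was -0.28 ± 0.11 (SE, adjusted p = 1.00 by edgeR), while in females it was 0.13 ± 0.14. The call was lost when any 1 mouse other than saline male 3 was left out (5 of 6 fits) and under 6 of 9 other settings. Nrgn, which encodes the postsynaptic calmodulin-binding protein neurogranin, was at 10.2, 13.4, and 4.17 CPM in saline males and 4.76, 4.62, and 5.85 CPM in morphine males. Its interaction of treatment and sex was -1.12 ± 0.47 (SE, adjusted p = 0.98 by edgeR), and saline males 1 and 2 held the highest values of the 12 mice. That call was lost in 7 of 12 fits that left out 1 mouse (-0.77 without saline male 2) and with scaling by total counts. Nrgn was at 3.45 to 6.43 CPM in the 9 other mice. Calm3 and Calm2, which encode the same protein and were picked after their values were seen, differed in how they varied. Calm3 was at 1350 and 1430 CPM in saline males 1 and 2 and 541 CPM in saline male 3, while Calm2 was at 924, 844, and 1290 CPM.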

How the data were processed

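RNA-seq of the brainstem of 12 mice was used. The authors took 100 bp single-end reads through scruff and Trimmomatic, mapped them to mm10 by STAR, and assigned them to exons of Ensembl GRCm38 genes by featureCounts; the strand and multimapping settings are not given in the sources used here. The deposited values are whole-number counts per gene with differing totals (27850565 to 48097947) and were treated as raw. The extraction protocol in the labels names spinal cords, while the tissue label and the paper's methods name brainstem. The series text names dam as a covariate, but no label gives it, so it was not used. Nothing in the labels says which mice share a litter.

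Fits used edgeR 4.0.16 in R 4.3.3 (quasi-likelihood test, TMM, filterByExpr) across all genes, with Benjamini-Hochberg adjustment, as sex-combined with sex as a covariate, females, males, and the interaction over 12 mice. Intervals are 95% from the fit's degrees of freedom. CPM values use TMM factors over 12 libraries, with a prior count of 2 on the log2 scale. Positions, exon lengths, and GC content (of the longest transcript of a gene) came from GENCODE M21 on GRCm38. Shares and correlations were tested in Python 3.11.15 with scipy 1.17.1. Symbols were matched to the annotation, in which all 55418 were found.

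Alternatives were DESeq2 1.42.0 (size factors and Wald test), total-count scaling, other filters, GC and length offsets, exactTest, p alone, no covariate, a replicate block, a contrast from all 12 mice, and leaving out each mouse. The longest-transcript length, the correlations in subsets of mice, and the relations with marker lists were added after seeing the data. The named genes are the 9 genes, every gene of 5 pathway lists past the thresholds, the gene of each list with the smallest sex-combined p, and the most alike gene of each of the 9. The genes and lists were chosen with earlier results of these data known. The values of 1 pathway gene are not reported here. The fits were tested on simulated data.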

Additional observations from a re-analysis of the deposited data

Results flagged for a closer look

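Camk2b and Camk2g were picked out because every morphine female lay above the mean of the saline females and every morphine male lay below the mean of the saline males. For Camk2b the mean was 237 CPM in saline females and 316 CPM in saline males, and the sex difference in the morphine effect was -0.30 on the log2 scale (adjusted p = 0.98 by edgeR's quasi-likelihood test). For Camk2g the means were 278 CPM and 323 CPM, and the sex difference was -0.19 (adjusted p = 0.98 by edgeR's quasi-likelihood test). In both genes the mean of the saline males lies between saline males 1 and 2 on one side and saline male 3 on the other. Some margins were small. Camk2b was at 239 CPM in morphine female 2 and 312 CPM in morphine male 6, and Camk2g was at 280 CPM in morphine female 2. How often this pattern arose among all genes tested is not reported here.

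Nrgn, from the calmodulin-binding list, was picked out because the interaction itself passed the thresholds, at -1.12 (adjusted p = 0.98 by edgeR's quasi-likelihood test). None of the 18 sets of 6 saline or 6 morphine mice (9 genes in 2 treatments) held a mouse that stood apart by Dixon's criterion. Chance alone exceeds this criterion in about 1 in 20 sets. For 5 of the 9 genes saline males 1 and 2 lay opposite saline male 3, which widened the range of the saline set. The criterion thus cannot decide whether saline male 3 stood apart.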

How the results depend on the processing

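The number of the 9 genes past the thresholds was 0 in every comparison and under every alternative run, except without saline male 3, where it was 2 in males and 3 in the interaction, so that over the leave-out fits it ran from 0 to 2 and from 0 to 3. Some log2 fold changes near 0 changed sign. Scaling by total counts gave 0.047 for Camk2a, 0.028 for Camk2b, and 0.030 for Camk2g (sex-combined), 0.024 for Camk2a, 0.035 for Ppp3ca, and 0.024 for Ppp3cb (males), and 0.093 for Ppp3ca and 0.075 for Ppp3cb (interaction). That scaling moved the median over all genes in males from -0.064 to 0.061 and the share of higher calls from 64.3% to 91.3%, and in the sex-combined and interaction fits the share moved from 51.1% to 72.7% and from 54.7% to 81.2%. Offsets for GC content and length gave -0.004 for Camk2d (sex-combined), 0.036 for Camk2d, 0.008 for Ppp3ca, 0.025 for Ppp3cb, and 0.012 for Ppp3r1 (females), and -0.045 and -0.084 for Camk2d (males and interaction). A filter of 10 counts in every library gave 0.001 for Camk2a (sex-combined) and 0.009 for Ppp3ca (interaction). Leaving out 1 mouse at a time gave these ranges where a sign or a call changed. With the sexes combined they were Camk2a -0.075 to 0.041, Camk2b -0.15 to 0.076, Camk2d -0.047 to 0.10, Camk2g -0.089 to 0.027, Camk4 -0.012 to 0.14, Camk1d -0.020 to 0.049, Ppp3ca -0.11 to 0.015, Ppp3cb -0.12 to 0.051. In females they were Camk2a -0.018 to 0.12, Camk2g -0.004 to 0.15, Camk4 -0.17 to 0.17, Camk1d -0.10 to 0.008, Ppp3ca -0.14 to 0.013. In males they were Camk2a -0.21 to 0.025, Camk2b -0.45 to -0.008, Camk2d -0.088 to 0.32, Camk4 -0.042 to 0.23, Camk1d -0.009 to 0.22, Ppp3ca -0.22 to 0.14, Ppp3cb -0.24 to 0.22, Ppp3r1 -0.43 to 0.10. In the interaction they were Camk2b -0.61 to -0.11, Camk2d -0.012 to 0.34, Camk2g -0.36 to -0.11, Camk4 -0.041 to 0.29, Ppp3ca -0.13 to 0.17, Ppp3cb -0.16 to 0.24, Ppp3r1 -0.35 to 0.12. Gap43 in males ran from -0.32 to -0.20 and Nrgn in the interaction from -1.49 to -0.77. The cause of these changes was not tested.

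Same-numbered saline and morphine mice are of opposite sex and share only a number. Their deviations correlated at between -0.36 and 0.18, and with the replicate number as a block the values for Camk2a and Camk2b were 0.003 and 0.014, 0 of the 9 genes passed, and 204 of all genes did in place of 221.

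None of the shares differed between treatments under any setting. Without length scaling, the difference for Ppp3cb was 0.0485 percentage points, and leaving out 1 mouse gave Camk2a -0.293 to 0.408, Camk2b -0.987 to 1.41, Camk2d -0.942 to 0.741, Camk2g -0.337 to 0.214, Ppp3ca -0.785 to 0.0698, Ppp3cb -0.675 to 0.455 percentage points. With deviations from group means, 28 of the 36 correlations passed in place of 26. Intervals here rest on 3 to 6 mice per group, and they lay within the threshold of 0.26 for 4 of the 9 genes with the sexes combined, for 3 of 9 in females, and for 0 of 9 in males and in the interaction.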

Other observations

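The genes most like each of the 9 over the 12 libraries, by Pearson's r of log2 CPM among 18607 genes, are given as a description. They were Neurl4 for Camk2b (r = 0.99), Flot1 for Camk2g (0.99), Man1b1 for Camk2a (0.93), Rimklb for Camk2d (0.99), Pcdhb19 for Camk1d (0.96), Hnrnpa0 for Ppp3ca (0.98), Stau2 for Ppp3cb (0.99), and Nudt10 for Ppp3r1 (0.99). Trpc5, which encodes a calcium-permeable channel, was most like Camk4 (0.95).

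Saline male 3 was the lowest of the 12 mice for 21 of the 44 genes of the pathway lists and the highest for 7, whereas it was the lowest for 2 and the highest for 5 of the 9 genes. Saline males 1 and 2 and saline male 3 lay on opposite sides of the 9 other mice for 14 of the 44 (31.8%), against 20.7% of all genes tested. Saline male 3 was the lowest of the 12 mice for 7 of the 8 other CaM kinases and CaMKII inhibitors and the highest for the eighth, Camk2n1 (521 CPM, against 307 and 352 CPM in saline males 1 and 2). Among all genes tested, saline male 3 was the lowest for 25.9% and the highest for 22.0%. It was the lowest for 2 of 7 calmodulin and calmodulin-binding genes, 2 of 9 other calcineurin subunits, inhibitors, and anchors, and 5 of 12 CaM kinase targets and partners. Of 8 calcineurin targets it was the lowest for 5, including Crtc1 (20.1 CPM, against 59.5 and 64.6 CPM) and Crtc3 (7.11 CPM, against 17.9 and 16.9 CPM). Hdac5, a class II histone deacetylase that CaM kinases phosphorylate, was at 120 and 146 CPM in saline males 1 and 2, 25.7 CPM in saline male 3, and 36.1 to 75.6 CPM in the 9 other mice. These genes were chosen after their values were seen.

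Levels of the 9 genes were set beside the summed levels of 10 marker lists in 90 relations over 12 mice, of which 11 had an adjusted p under 0.05 by permutation. Camk2g followed the cytosolic ribosomal protein genes (r = 0.92, p = 1e-05, the smallest the permutations can give, adjusted p = 9e-04, rho = 0.90, p = 0.00015), with r = 0.87 without the 2 mice farthest from its median. Camk2b did too (r = 0.86, p = 0.00024, adjusted p = 0.011 by permutation, rho = 0.83, p = 0.0014), with r = 0.82 without 2 mice. Camk2a ran against the summed cerebellar granule cell markers (r = -0.82, p = 0.00087, adjusted p = 0.020 by permutation, rho = -0.83, p = 0.0012), with r = -0.88 without 2 mice. Zic1 and Etv1 made up most of this sum. They were at 59.7 and 44.4 of 132 CPM in saline male 1 and 98.3 and 64.7 of 240 CPM in morphine male 5. The relation with each marker alone was not tested. The summed oligodendrocyte markers were at 57450 and 60160 CPM in saline males 1 and 2 and 38230 CPM in saline male 3.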
